A study of Mus musculus with 14 samples.

Results

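Mitochondrial fatty acid oxidation and ketogenesis was followed through 31 genes in mouse liver. They comprise the carnitine shuttle, the acyl-CoA synthetases, the acyl-CoA dehydrogenases, the later enzymes of the oxidation spiral, the electron transfer flavoprotein system, a pair of ketone body enzymes and the pyruvate dehydrogenase kinase gene Pdk4. The members were chosen by name from knowledge of the pathway and not by a measured value, but with earlier results of these data known. All 31 had an entry among the 37681 genes counted, and all 31 were expressed highly enough to be among the 17223 genes tested.

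Liver came from 7 mice fed a diet high in fat and sucrose (HFHS) and from 7 mice fed one low in fat and sucrose (LFLS), and the polyadenylated RNA of each mouse formed a separate library. The labels state neither strain, genotype, sex nor age, nor how long the mice were fed, whether they were fasted, or the hour of collection. The first digit of the sample title is 1 for mice 1 to 4 of each diet and 2 for mice 5 to 7 of each diet. Its meaning is not stated. This title number is handled here like a batch, and diet differences within each title number stand beside the pooled ones. A later digit of the title is 1 for every LFLS mouse and 4 for every HFHS mouse, so it cannot be told apart from diet. Titles that share the first digit and the end letters (BC, LC, NC or RC) form the title pairs used below. What the letters mark is not stated.

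Fatty acids entering a hepatocyte are first joined to coenzyme A and, if long, are carried into mitochondria as carnitine esters. In the matrix a repeating spiral of dehydrogenation, hydration, a further dehydrogenation and thiolytic cleavage shortens them and releases acetyl-CoA, while electrons pass to the respiratory chain. The liver burns part of the acetyl-CoA and, mainly in fasting, turns the rest into ketone bodies for export. Much of this program is under the nuclear receptor PPAR alpha, which binds DNA with RXR.

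Promoter sequences, taken from RefSeq on build GRCm38.p6, matched 26 of the 31 members with 28 promoters of 300 bases, from 250 bases before to 50 bases after the start. The 4 shown here, as the 250 bases before the start, belong to Hadh, which was called higher on HFHS, to Acadm, whose diets did not overlap, to Cpt1a, which had the smallest p of the carnitine shuttle, and to Hadhb. Hadhb starts 273 bases from its partner gene Hadha on the opposite strand, so both subunit genes of the trifunctional protein share 228 bases of their windows. Capitals mark matches on either strand to 5 motifs. AGGTCA is the hexamer of many nuclear receptors, and AGGTCANAGGTCA, which contains it, is the repeat that PPAR alpha with RXR is known to bind. GGGCGG is the GC box of Sp1 and its relatives. CCAAT is the box bound by NF-Y, and TATAAA is the core of the TATA box. Each sequence reads 5′ to 3′ on the strand of its gene.
Hadh, chr3:131272102-131272351, minus strand: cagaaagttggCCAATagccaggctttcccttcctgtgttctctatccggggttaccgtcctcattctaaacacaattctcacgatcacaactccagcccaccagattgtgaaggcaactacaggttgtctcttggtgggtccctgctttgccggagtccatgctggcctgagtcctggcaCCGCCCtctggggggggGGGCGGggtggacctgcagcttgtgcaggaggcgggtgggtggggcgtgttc
Acadm, chr3:153944644-153944893, minus strand: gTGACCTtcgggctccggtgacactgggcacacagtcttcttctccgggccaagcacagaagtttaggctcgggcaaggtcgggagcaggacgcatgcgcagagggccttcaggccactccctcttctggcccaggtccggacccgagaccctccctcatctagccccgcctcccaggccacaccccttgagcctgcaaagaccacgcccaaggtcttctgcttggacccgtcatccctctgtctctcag
Cpt1a, chr19:3323051-3323300, plus strand: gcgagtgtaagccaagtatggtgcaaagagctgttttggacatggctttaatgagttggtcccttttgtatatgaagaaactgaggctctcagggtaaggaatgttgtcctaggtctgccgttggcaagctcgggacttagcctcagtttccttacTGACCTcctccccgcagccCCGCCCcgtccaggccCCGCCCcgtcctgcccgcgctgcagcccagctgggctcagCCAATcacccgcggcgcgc
Hadhb, chr5:30155003-30155252, plus strand: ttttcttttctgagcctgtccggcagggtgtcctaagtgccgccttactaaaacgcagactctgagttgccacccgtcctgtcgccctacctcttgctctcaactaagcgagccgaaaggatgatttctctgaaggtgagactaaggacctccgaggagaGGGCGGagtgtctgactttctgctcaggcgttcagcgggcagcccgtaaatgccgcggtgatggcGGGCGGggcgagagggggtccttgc
The 250 bases of Hadh held 2 GC boxes and 1 CCAAT box, and 59.6% of its bases were G or C. In Acadm the only match was AGGTCA, read on the reverse strand from 249 bases before the start. Cpt1a held the same hexamer from 94 bases before the start, again reversed, with 2 GC boxes and 1 CCAAT box. Over the 28 member windows of 300 bases, AGGTCA was found in 5 (17.9%; Acadm, Acadvl, Acsm1, Cpt1a and Echs1) against 16.3% of all 32851 promoter windows. The repeat AGGTCANAGGTCA was found in 0 member windows and in 0.0396% of all windows. The GC box stood in 17 member windows (60.7%) against 35.7% of all, the CCAAT box in 13 (46.4%) against 37.4%, and the TATA box in 0 against 13.6%. These are letter matches in a window near the start and say nothing of binding.

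The total per library ran from 18.2 M to 52.8 M counts (M for mega), and a member's count in a library ranged from 101 (Cpt1b) to 69132. Levels are given as CPM, counts brought to a common library size and scaled by TMM, a correction for RNA composition. On principal components of all tested genes LFLS 1 lay farthest out on the first (30.3% of the variance) and HFHS 1 on the second (17.6%). The mitochondrially encoded genes took 3.53% ± 1.23 of counts on LFLS and 4.68% ± 0.332 on HFHS (SD, n = 7 each), with LFLS 1 lowest at 1.39%. The 10 hepatocyte markers were all present. Between diets edgeR called 0 of them, DESeq2 3 and limma voom 3, against 2.81%, 7.3% and 19.0% of all genes. At an unadjusted p under 0.05 by edgeR, 6 of the 10 were lower on HFHS, against 10.8% of all genes. The median log2 difference of the 10 was -0.50. Their sum, however, spanned 87532 to 134919 CPM on LFLS (median 94904.9) and 69741 to 110696 CPM on HFHS (median 99326.5). Summed exocrine pancreas markers spanned 19.0 to 1960.4 CPM on LFLS and 16.5 to 534 CPM on HFHS, and skeletal muscle markers did not exceed 7.65 CPM in any library. The 10 adipose markers summed to 743 to 1883 CPM on LFLS and 1720.2 to 2637 CPM on HFHS. Their part, and that of the hepatocyte markers, in the differences below was not tested.

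Between diets, 2 of the 31 members rose on HFHS, 0 fell and 29 were not called (edgeR quasi-likelihood test, Benjamini-Hochberg adjusted p under 0.05 over all 17223 genes). The 2 were Hadh, a dehydrogenase of the spiral, and Acat1, the mitochondrial acetoacetyl-CoA thiolase. Of all tested genes 2.81% were called, 1.37% higher and 1.44% lower, and 2 of 31 members is 6.45%, too few genes to read against that share. The median log2 difference of the members was 0.10, against -0.01 for all genes, and 21 members lay above 0 and 10 below. At an unadjusted p under 0.05 there were 5 members higher (16.1%) and 1 lower (3.23%), against 8.81% of all genes higher and 10.8% lower. DESeq2 called 3 members higher, while it called 7.3% of all genes, 3.15% higher. Limma voom with quality weights called 10 higher, while it called 19.0% of all genes, 9.96% higher, and neither tool called a member lower. With the title number as a block, 3 members were called higher, Hadh, Acat1 and Acadm, against 8.94% of all genes called and 4.38% called higher. The block of title pairs, whose libraries did not deviate together in every pair, left 1 member, Hadh, with 3.47% of all genes called. In bulk liver, fewer cells of a type and less RNA per cell cannot be told apart.

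**Figure D1:**
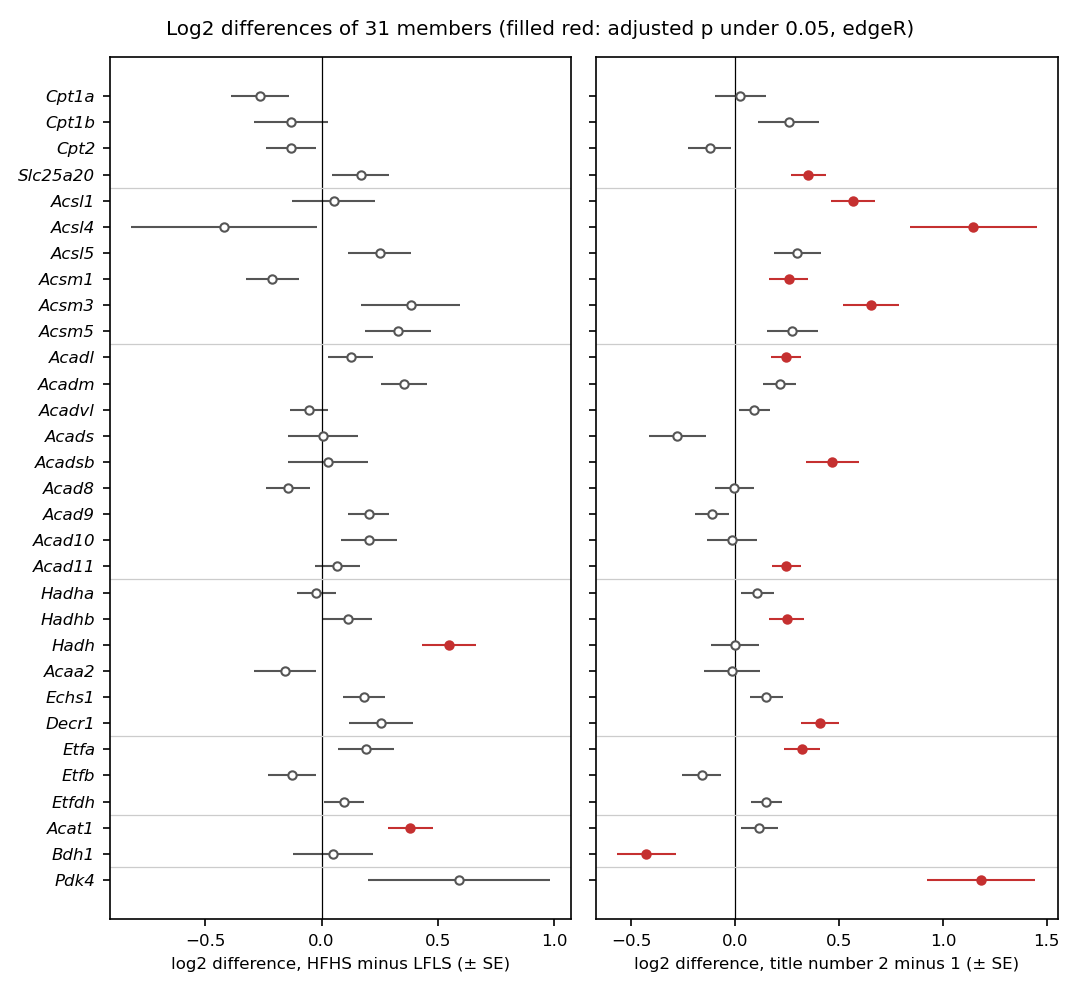
Log2 difference with its standard error for each of the 31 members, ordered by role, HFHS minus LFLS on the left and title number 2 minus title number 1 on the right. Filled red points have an adjusted p under 0.05 by edgeR: 2 members between diets, and 13 members between title numbers.

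Hadh (ENSMUSG00000027984) encodes the dehydrogenase that oxidises medium- and short-chain 3-hydroxyacyl-CoA in the third step of the spiral. Its level was 219 CPM in the lowest LFLS library, 268 CPM at the median and 372 CPM in the highest, against 362, 406 and 458 CPM on HFHS. All 7 HFHS libraries lay above the LFLS median and 5 lay above the highest LFLS library, LFLS 1, so the diets overlapped narrowly. The log2 difference was 0.55 ± 0.12 (SE), 46.2% higher on HFHS, with an adjusted p of 0.0222 by edgeR. Within title number 1 the log2 difference was 0.43, and within title number 2 it was 0.74. Across the alternatives the adjusted p ranged from 0.000235 with DESeq2 to 0.0942 with title number 1 alone. The call was also lost with no filter on low counts, and without HFHS 2 or without HFHS 5 (up to 0.0559).

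Acat1 (ENSMUSG00000032047) encodes the thiolase that joins acetyl-CoA molecules at the entry to ketogenesis and also cleaves acetoacetyl-CoA in ketone use and isoleucine breakdown. It measured 327 CPM in the lowest, 434 CPM in the median and 449 CPM in the highest LFLS library, and 474, 530 and 563 CPM on HFHS. Every HFHS library was above every LFLS library. The log2 difference was 0.38 ± 0.10 (SE), 30.3% higher, with an adjusted p of 0.0458 by edgeR. It was 0.39 within title number 1 and 0.40 within title number 2. The call was close to the threshold: it was kept when LFLS 1 or LFLS 6 was left out and lost when any of the other 12 libraries was left out (adjusted p 0.0278 to 0.111). It was also lost with no filter on low counts, with the title pairs as a block and within either title number alone. Bdh1, the enzyme that interconverts acetoacetate and 3-hydroxybutyrate, differed by 0.05 ± 0.17 (adjusted p 0.904), and its diet difference was -0.18 within title number 1 and 0.50 within title number 2.

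Acadm, the medium-chain acyl-CoA dehydrogenase that starts each turn of the spiral on medium-length chains, was the other member whose diets did not overlap. Its LFLS libraries ran from 219 CPM through a median of 274 to 301 CPM, and its HFHS libraries from 302 through 322 to 388 CPM. The highest LFLS library and the lowest HFHS library nearly met, and the upper end of HFHS was formed by HFHS 5 to 7. The log2 difference of 0.35 ± 0.10 had an adjusted p of 0.0609 by edgeR and so was not called, whereas the fit with the title number as a block (0.0151), DESeq2 (0.00911) and limma voom (0.00671) called it. Within title numbers 1 and 2 it was 0.32 and 0.42. Non-overlap of the diets held for 2 members of 31, and for 1.65% of all tested genes.

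**Figure D2:**
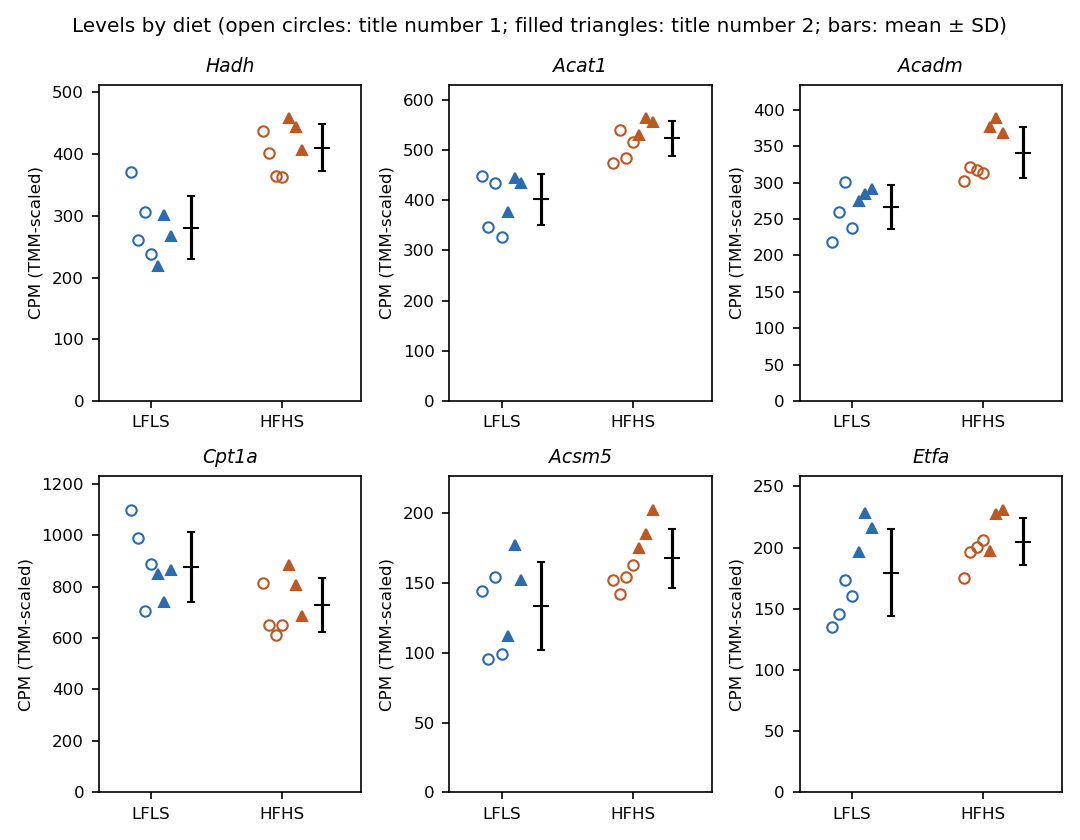
TMM-scaled CPM of 6 members in each library by diet, with open circles for title number 1, filled triangles for title number 2, and bars for the mean ± SD of 7 libraries. Acat1 and Acadm do not overlap between diets, and Hadh overlaps only through LFLS 1. Acsm5 and Etfa overlap broadly, while for Cpt1a 4 of 7 HFHS libraries lie below the lowest LFLS library.

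For the roles below, the shares of all genes called were 2.81% by edgeR, 7.3% by DESeq2 and 19.0% by limma voom. An unadjusted p under 0.05 by edgeR was found for 19.6% of all genes. Among the carnitine shuttle genes 0 of 4 were called by edgeR, DESeq2 or limma voom, and 1 of 4 had an unadjusted p under 0.05. That gene was Cpt1a, the outer-membrane carnitine palmitoyltransferase whose inhibition by malonyl-CoA controls entry of long chains in liver. It ranged from 707 through a median of 863 to 1098 CPM on LFLS and from 613 through 684 to 883 CPM on HFHS. In 1 of the 7 HFHS libraries it lay above the LFLS median, but the ranges overlapped. The log2 difference was -0.27 ± 0.12 (adjusted p 0.247 by edgeR), with -0.41 within title number 1 and -0.04 within title number 2. Cpt2, the inner-membrane transferase, differed by -0.13 ± 0.11, and Slc25a20, the carnitine-acylcarnitine translocase, by 0.17 ± 0.12. Cpt1b, the muscle form, stayed low at 4.79 to 9.40 CPM over both diets and differed by -0.13 ± 0.16. For Cpt1b, 81.4% of the annotated exon bases also belong to a second gene model on the same strand. Exon overlaps here and below come from GENCODE vM21, whereas the counts were made on mm9, so whether this overlap split the count of Cpt1b is not known.

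The acyl-CoA synthetases, which activate fatty acids, had 0 of 6 called by edgeR and DESeq2 and 3 by limma voom (Acsl5, Acsm3 and Acsm5). Acsm5, a medium-chain synthetase of the matrix, had the smallest p of the group. Its level was 95.6, 144 and 177 CPM at the lowest, median and highest LFLS library and 142, 163 and 202 CPM on HFHS, with a log2 difference of 0.33 ± 0.14 (adjusted p 0.212 by edgeR). The value was similar within both title numbers, 0.33 and 0.35. Acsm3 differed by 0.38 ± 0.21 and Acsm1 by -0.21 ± 0.11. These 3 are close paralogues, and how the authors' counting shared reads between them is not given in the sources used here. For Acsm3, 39.7% of the exon bases also overlap Eri2 on the other strand, and whether this affected its count is not known. Acsl1, the main long-chain synthetase of liver, differed by 0.05 ± 0.18 and Acsl5 by 0.25 ± 0.14.

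Acsl4, the synthetase that prefers arachidonate, had the lowest log2 difference of the members, -0.42 ± 0.40 (adjusted p 0.591 by edgeR), and the widest spread. Its LFLS libraries ran from 45.6 to 446 CPM around a median of 112, while HFHS stayed between 98.4 and 157 CPM around 124. The 4 LFLS libraries of title number 1 held 45.6 to 112 CPM and the 3 of title number 2 held 196 to 446 CPM, with LFLS 5 highest. Without LFLS 5 the log2 difference of Acsl4 between diets was 0.060, with limma voom it was 0.079, and with the title number as a block it was -0.12. The diet difference was therefore 0.58 within title number 1 and -1.03 within title number 2, and the difference between these, -1.60, had an adjusted p of 0.0751 by edgeR.

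Of the 9 acyl-CoA dehydrogenases 0 were called by edgeR, and 2 had an unadjusted p under 0.05, Acadm and Acad9, both higher. DESeq2 called Acadm, and limma voom called both. Acad9, which also serves in assembly of respiratory complex I, differed by 0.20 ± 0.09 (adjusted p 0.217), and Acad10 by 0.20 ± 0.12. The long-chain enzyme Acadl differed by 0.12 ± 0.10, the very long-chain enzyme Acadvl by -0.05 ± 0.08 and the short-chain enzyme Acads by 0.01 ± 0.15. For Acadvl, 42.9% of exon bases overlap Dvl2 on the other strand. Acadsb and Acad8, which act in isoleucine and valine breakdown, differed by 0.03 ± 0.17 and -0.15 ± 0.09, and Acad11 by 0.07 ± 0.10. The median over the 9 was 0.07.

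Of the 6 later enzymes of the spiral only Hadh was called by edgeR and DESeq2, and limma voom added Echs1 and Decr1. Hadha and Hadhb, the subunits of the trifunctional protein that handles long chains at the inner membrane, differed by -0.02 ± 0.09 and 0.11 ± 0.11. Their levels per kb of transcript were unequal, with means of 97.3 and 47.6 CPM per kb on LFLS. Echs1, the short-chain enoyl-CoA hydratase, differed by 0.18 ± 0.09 (adjusted p 0.276), and Decr1, the reductase needed for unsaturated chains, by 0.26 ± 0.14. Acaa2, the thiolase for medium and long chains, differed by -0.16 ± 0.13. It was the most abundant member per kb, with means of 554 CPM per kb on LFLS and 496 on HFHS. Transcript lengths for these values came from the longest coding transcript of each gene in GENCODE vM21.

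The electron transfer flavoprotein genes, which pass electrons from the acyl-CoA dehydrogenases to ubiquinone, had 0 of 3 called by edgeR and DESeq2, 0 at an unadjusted p under 0.05, and 1 called by limma voom. That gene, Etfa, held 135, 174 and 228 CPM at the lowest, median and highest LFLS library and 175, 201 and 231 CPM on HFHS, a log2 difference of 0.19 ± 0.12 (adjusted p 0.396 by edgeR). The difference was 0.35 within title number 1 and 0.04 within title number 2. Its partner subunit Etfb differed by -0.13 ± 0.10 and the dehydrogenase Etfdh by 0.10 ± 0.09. For Etfb, 53.01% of the annotated exon bases also belong to Gm45233 on the same strand, and whether this split its count is likewise not known.

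Pdk4 encodes a kinase that inactivates pyruvate dehydrogenase and so spares glucose carbon when fat is burned. It ranged from 7.26 through 9.42 to 24.5 CPM on LFLS and from 5.70 through 18.03 to 37.8 CPM on HFHS. The lowest HFHS library lay below every LFLS library and 2 HFHS libraries lay above all of them. Pdk4 had the largest log2 difference of the members, 0.59, but with an SE of 0.39 it was not called (adjusted p 0.419 by edgeR). By Pearson's r of log2 CPM over the 14 libraries, the members most like Pdk4 were Acad11 (0.86), Acadl (0.80) and Slc25a20 (0.80), and those most like Hadh were Acat1 (0.88), Acad9 (0.85) and Echs1 (0.82). On deviations from the diet means the same pairs gave 0.85, 0.78 and 0.78, and 0.64, 0.76 and 0.76. The points share diet and title number, and these r describe only the 14 libraries.

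More members differed between title numbers than between diets. With diet in the model, 13 of 31 members (41.9%) were called by edgeR, against 28.8% of all genes, 12 higher in title number 2 and 1, Bdh1, lower; of all genes 13.9% were higher and 14.8% lower. The 12 were Slc25a20, Acsl1, Acsl4, Acsm1, Acsm3, Acadl, Acadsb, Acad11, Hadhb, Decr1, Etfa and Pdk4. None of the 13 was called between diets by edgeR, while limma voom called Acsm3, Decr1 and Etfa between diets. Leaving out single libraries moved the count between 9 and 15, and DESeq2 called 16 members between title numbers, with 32.9% of all genes.

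Markers of several liver cell types also moved with the title number. Of all genes, edgeR called 14.8% lower and 13.9% higher in title number 2. By edgeR, 7 of 12 Kupffer cell and macrophage markers were called lower in title number 2 (median log2 difference -0.57), as were 4 of 10 endothelial (-0.30) and 3 of 10 stellate cell markers (-0.57), and 0 of these were called higher. Of the 10 hepatocyte markers 4 were called higher and 0 lower (0.24). Beyond these, 1 of 7 tested bile duct and 1 of 9 tested lymphocyte markers were lower, 1 of 5 tested adipose markers was higher, and 0 of 16 tested exocrine pancreas markers were called. Such single calls are too few to read against the shares of all genes. The summed Kupffer cell and macrophage markers spanned 413 to 647 CPM in title number 1 and 288 to 517 CPM in title number 2. The endothelial sum went from 384 to 618 CPM down to 345 to 401 CPM, and the stellate sum from 272 to 761 CPM to 270.5 to 363 CPM. The hepatocyte sum spanned 69741 to 110696 CPM and 93541 to 134919 CPM. The ranges of the title numbers overlapped for all 4 sums, and the part of these cell types in the members' differences was not tested.

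Pdk4 had the largest difference between title numbers, 1.18 ± 0.26 on the log2 scale (adjusted p 0.00639 by edgeR). Title number 1 libraries held 5.70 to 21.3 CPM around a median of 9.16, and title number 2 libraries held 10.3 to 37.8 CPM around 21.7. Acsl4 was higher by 1.15 ± 0.31 and Acsm3 by 0.65 ± 0.14. Acsl1 went from a median of 1185 CPM (918 to 1300.0) in title number 1 to 1768 CPM (1324 to 1853) in title number 2, a log2 difference of 0.57 ± 0.11. Acsl1 and Acad11 (480 to 536 against 560 to 667 CPM) were the 2 members whose title numbers did not overlap, as 5.81% of all genes did not. Bdh1 differed by -0.43 ± 0.14, from 245 to 383 CPM in title number 1 to 159 to 280 CPM in title number 2. Nr1d1, a clock gene and repressor, chosen after its values were seen, held 57.8 to 242 CPM in title number 1 and 6.05 to 21.4 CPM in title number 2, and its part in the members' differences was not tested.

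**Figure D3:**
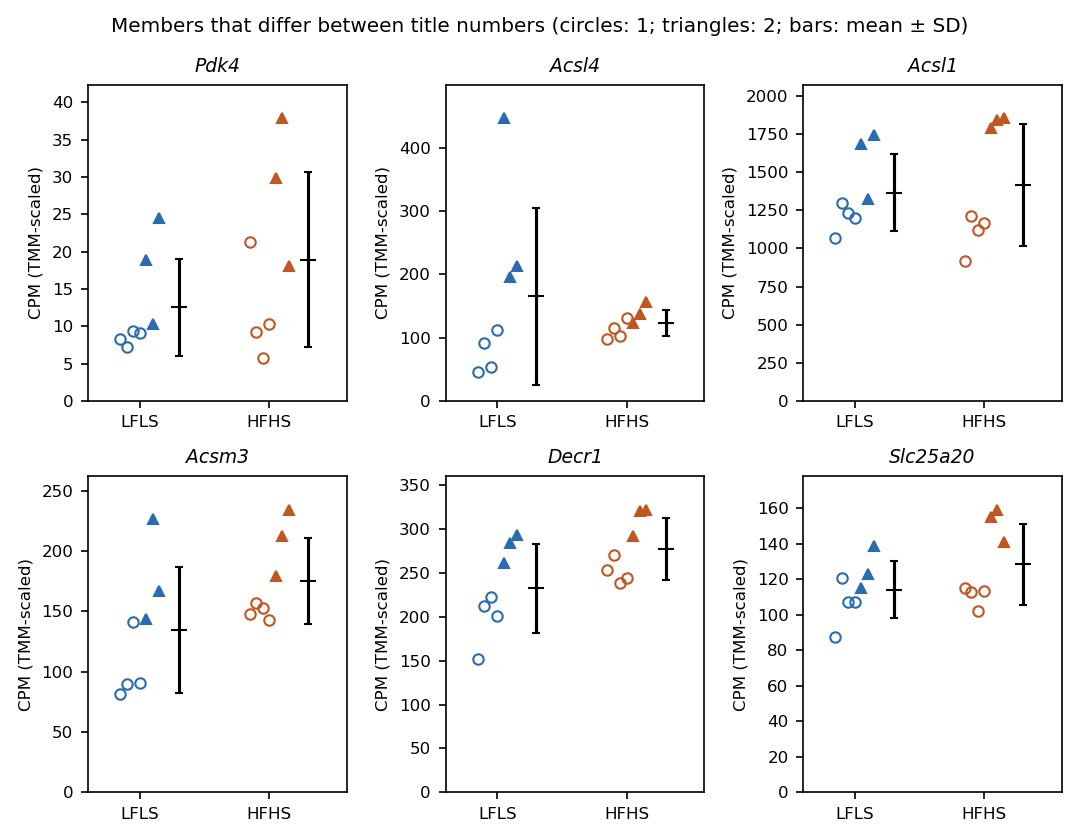
TMM-scaled CPM of 6 members called between title numbers, by diet, with circles for title number 1, triangles for title number 2, and bars for the mean ± SD of 7 libraries. Within each diet all triangles lie above all circles for Acsl1, Acsm3 and Decr1, and for Acsl1 alone also over both diets together. They do so in LFLS alone for Acsl4 and Pdk4, and in HFHS alone for Slc25a20. For Acsl4, 1 LFLS library reaches 446 CPM.

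The diet difference had the same sign in both title numbers for 20 of 31 members, against 52.4% of all genes. Hadh, Acat1, Acadm and Acsm5 were above 0 in both. Cpt2, Acads, Bdh1, Acsl4 and Acadsb were among those whose sign changed. The test of the difference itself called 0 members by edgeR (0.883% of all genes) and 6 at an unadjusted p under 0.05 (19.4%, against 22.6% of all genes). DESeq2 called 5 members (8.52% of all genes), and edgeR called 1 without HFHS 1 and 4 without LFLS 4. Within title number 1 alone 0 members were called between diets by edgeR, of 8.49% of all genes, and within title number 2 alone 1 was, Hadh, of 1.58%.

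**Figure D4:**
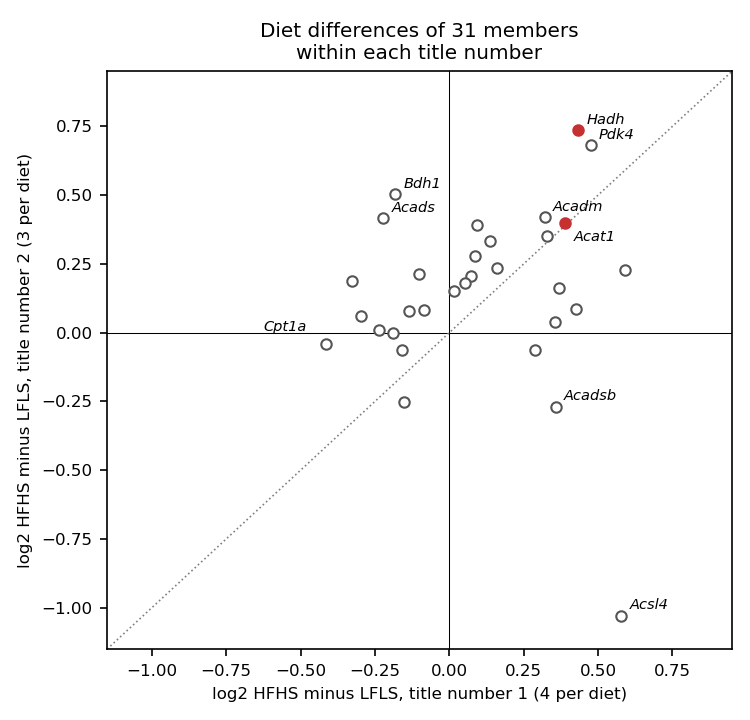
Log2 difference between diets (HFHS minus LFLS) of each of the 31 members in title number 1 (horizontal axis, 4 libraries per diet) and in title number 2 (vertical axis, 3 per diet), with red for the 2 members called over all libraries and a dotted line of equality. Hadh and Acat1 lie in the upper right part of the plot, and Acsl4 lies at 0.58 and -1.03.

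As a share of all counts the 31 members together took 0.882% ± 0.0332 on LFLS and 0.947% ± 0.0691 on HFHS (SD, n = 7 each). Within title number 1 the means were 0.885% and 0.895%, and within title number 2 they were 0.878% and 1.02%, so the 3 HFHS libraries of title number 2 held the highest shares. Like the tested genes as a whole, the members varied more between LFLS mice. Their median SD of log2 CPM was 0.24 on LFLS and 0.15 on HFHS, against 0.35 and 0.21 over all genes. The SD was larger on LFLS for 21 of 31 members and for 79.3% of all genes.

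The other genes of the pathway were read from 4 lists. Of all genes, edgeR called 2.81%, DESeq2 7.3%, limma voom 19.0% and the fit with the title number as a block 8.94%. An unadjusted p under 0.05 by edgeR was found for 19.6% of all genes, 8.81% higher and 10.8% lower. Among 28 tested genes of other mitochondrial oxidation and ketone steps, 0 were called by edgeR and DESeq2, 7 had an unadjusted p under 0.05 (5 higher, 2 lower), limma voom called 9 higher and 1 lower, and the median log2 difference was 0.12. Its smallest p belonged to Mlycd, which degrades malonyl-CoA, at -0.32 ± 0.12 (adjusted p 0.150), and to Mut, of propionate disposal, at 0.33 ± 0.12 (adjusted p 0.166).

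Among 28 regulators of fatty acid oxidation, 0 were called by edgeR, 9 had an unadjusted p under 0.05 (2 higher, 7 lower), as 19.6% of all genes had, 10.8% lower, and 20 lay below 0 and the median was -0.12. DESeq2 called 1 higher and 4 lower, limma voom 1 and 5, and the fit with the title number as a block 0 and 4. The hepatocyte nuclear factor gene Hnf4a had the smallest p, with 434, 649 and 835 CPM at the lowest, median and highest LFLS library and 367, 467 and 515 CPM on HFHS, a log2 difference of -0.51 ± 0.13 (adjusted p 0.0518 by edgeR). Hnf4a was called lower with the title number as a block (0.0204), with the title pairs as a block (0.0264), with DESeq2 (0.00699), with the filter at 1 CPM and without LFLS 4 (0.0248). It was -0.48 and -0.53 within title numbers 1 and 2. Ppard followed at -0.45 ± 0.13 (adjusted p 0.0788). Ppara itself, chosen after its values were seen, had a mean of 302 CPM on LFLS and 290 CPM on HFHS. Its medians were 285 and 291 CPM, and it differed by -0.06 ± 0.09.

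Of 20 classical PPAR alpha targets outside mitochondria, 1 rose by edgeR, 0 fell, and the median was 0.08. It was Acot4, a peroxisomal thioesterase gene, at 23.2, 44.5 and 70.1 CPM at the lowest, median and highest LFLS library and 48.0, 98.3 and 154 CPM on HFHS. Its log2 difference was 1.11 ± 0.28 (adjusted p 0.0451 by edgeR), 1.10 and 1.13 within the title numbers, and the call was lost without any of 12 of the 14 libraries (up to 0.109). DESeq2 called 5 of these genes higher and the fit with the title number as a block called 3, against 3.15% and 4.38% of all genes. Of 10 further pyruvate dehydrogenase genes 0 were called by edgeR and DESeq2. An unadjusted p under 0.05 was found for 3 of them, against 19.6% of all genes. Limma voom called 5 higher and 1 lower, and it called 19.0% of all genes. Pdp2, a phosphatase of the complex, was at -0.26 ± 0.09 and Pdhb, a subunit, at 0.32 ± 0.12.

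Of the 31 members 0 had an adjusted p under 0.05 in the authors' deposited table, against 37 genes in all, and 0 had an unadjusted p under 0.05 there. Hadh had a p of 0.12 there, Acat1 0.38 and Acadm 0.42, all with an adjusted p of 1 in the authors' deposited table.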

How the data were processed

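Liver polyadenylated RNA was sequenced as single reads from 14 mice. CASAVA 1.8, TopHat, Bowtie and DESeq with build mm9 are named in the submitters' processing notes, which do not name the counting tool. The deposited count table holds whole numbers with a minimum of 1. The authors' deposited results table gives signal values (means of counts over DESeq size factors), a fold ratio, its log2 and a p-value and adjusted p-value, per the file headers. It served for gene names and the authors' p-values only.

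Counts were fitted in R 4.3.3 with edgeR 4.0.16 (TMM, default filter by diet, quasi-likelihood F test, 17223 genes, Benjamini-Hochberg, threshold 0.05). The SE is the log2 difference over the square root of F. On simulated counts for HFHS against LFLS (17223 genes) 72 of 100 changes of log2 1 and 93 of 100 of log2 2 were recovered. Other settings were DESeq2 1.42.0, limma 3.58.1 voom, other scalings and filters, subtraction of 1, blocks for title number or title pairs, fits within each title number and the removal of each library; leaving out both LFLS 1 and HFHS 1 was added after seeing the data. Members, gene lists and tests were chosen with earlier results of these data known. All members are named; lowest, median and highest CPM are given for called or non-overlapping members, those called with the block and the smallest p of each role, and for other lists the called genes or the 2 smallest p. A result for 1 gene of these lists is not reported here.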

Additional observations from a re-analysis of the deposited data

Results flagged for a closer look

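Acaa2 had a library apart from the rest in each diet. On LFLS, LFLS 1 held 1269 CPM and the next highest library 848 CPM. On HFHS, HFHS 1 held 596 CPM and the next lowest library 738 CPM. Taken on log2 CPM, both gaps exceeded the 95% limit of Dixon's test for 7 libraries. On that log2 scale 2 of 62 sets of member and diet did so, where chance gives about 1 in 20. LFLS 1 and HFHS 1 are the libraries at the ends of the first and second principal component.

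Among the regulators, the diet difference of Ppargc1a in title number 2 minus that in title number 1 was -1.45 on the log2 scale (adjusted p 0.0340, edgeR interaction test). Its LFLS libraries held 7.62 to 12.3 CPM in title number 1 and 37.0 to 46.2 CPM in title number 2, against 10.6 to 11.7 and 14.1 to 20.8 CPM on HFHS. For Nr1d2 the same difference was -0.71 (adjusted p 0.0397), with LFLS at 86.3 to 99.1 CPM in title number 1 and 128 to 159 CPM in title number 2.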

How the results depend on the processing

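Of 806 alternative values of the members' log2 differences between diets, 737 kept their direction and side of the threshold, 12 gained and 20 lost the call, and 37, in 11 members, changed sign, the lowest adjusted p among these being 0.190. The count of members called higher (2) became 10 with limma voom, 0 with no filter on low counts, 0 with title number 1 alone and 1 with title number 2 alone. It became 0 to 3 leaving out each library in turn, with 3 (Hadh, Acat1 and Acad9) without LFLS 1. It was 2 without both LFLS 1 and HFHS 1. The count of all genes called (484) became 1258 with DESeq2, 3274 with limma voom, 173 with no filter, 1484 and 269 with title number 1 and 2 alone, 1540 with the title number as a block, and 133 to 853 leaving out each library. With the 7 title pairs as a block 598 genes and 1 member, Hadh, were called. Titles of a pair correlated at -0.069 to 0.415 in their deviations, 4 of 7 above 0.1, and 3 of 7 LFLS libraries matched their own pair best, so the libraries were not treated as paired. Members called for a difference of the diet change between title numbers (0) became 5 with DESeq2 and 0 to 4 leaving out each library.

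For other mitochondrial oxidation genes the counts higher and lower (0 and 0) became 9 and 1 with limma voom, 3 and 1 with title number 1 alone, and 2 higher with title number 2 alone, with its block and with the pairs block. For the regulators (0 and 0) they became 1 and 4 with DESeq2, 1 and 5 with limma voom, 1 and 1 with title number 1 alone, and 1 lower with title number 2 alone, the pairs block and the filter at 1 CPM; 4 were lower with the title number as a block, and 0 to 1 in either direction leaving out each library. The PPAR alpha targets called higher (1) became 5 with DESeq2, 6 with limma voom, 2 with library totals, 0 with no filter, 5 with title number 2 alone, 3 with the title number as a block, 2 with the pairs block and 0 to 2 leaving out each library. Pyruvate dehydrogenase genes (0 and 0) became 5 and 1 with limma voom and 1 higher with title number 1 alone.

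Log2 differences that changed sign were, with title number 1 alone, Acsl1 at -0.10, Acsl4 at 0.58, Acads at -0.22 and Bdh1 at -0.18. With title number 2 alone they were Cpt2 at 0.19, Acadvl at 0.077, Acadsb at -0.27, Acad8 at 0.0086, Hadha at 0.084, Hadhb at -0.062, Acaa2 at 0.062 and Ppara at 0.10. With limma voom they were Acsl4 at 0.079, Hadha at 0.033 and Acaa2 at 0.016. Further ones were Acads at -0.028 with no filter and Hadha at 0.021 with library totals, and without both LFLS 1 and HFHS 1, Hadha at 0.00078 and Acaa2 at 0.019. Leaving out each library, Acsl1 ranged from -0.025 to 0.13, Acsl4 from -0.59 to 0.060, Acads from -0.063 to 0.14, Acadsb from -0.053 to 0.15, Hadha from -0.051 to 0.0070 and Bdh1 from -0.026 to 0.18. The cause of these changes was not tested. Recovery was simulated only for log2 changes of 1 and 2, and every uncalled member differed by less than 1.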
